A study of Homo sapiens with 12 samples.

Results

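The genes described here encode 3 connected groups of helix-loop-helix (HLH) transcription factors, and each was found by its symbol among the 27514 genes of the deposited table. All 10 were listed. They are the 4 inhibitors of DNA binding (ID1, ID2, ID3 and ID4), the 3 E proteins (TCF3, TCF4 and TCF12) and 3 members of the hairy and enhancer of split family (HES1, HES6 and HEY1). Of the 10, 9 had a mean of at least 1 CPM (reads of a gene relative to all reads of its library) over the 12 samples and were tested, and HES1 was not.

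E proteins are broadly expressed basic HLH factors that bind E-box DNA as dimers, usually with a tissue-restricted partner such as HAND2. ID proteins lack the basic, DNA-binding region, so an E protein held by an ID protein cannot bind DNA, and ID genes are classical targets of BMP signalling. HES1 and HEY1 are repressors switched on by Notch signalling, whereas HES6 is known to oppose HES1 and to accompany neuronal differentiation. HAND2 belongs to the core regulatory circuit of sympathetic neurons and adrenergic neuroblastoma, and MYCN, the amplified oncogene of high-risk neuroblastoma, is a basic HLH leucine zipper factor that pairs with MAX rather than with E proteins.

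IMR32 is a human neuroblastoma cell line with MYCN amplification, and all 12 samples came from it. There were 3 samples in each of 4 groups, all electroporated 72 h before RNA extraction. They were given a control siRNA (siCtrl), the MYCN siRNA labelled siMYCN_2, the HAND2 siRNA labelled siHAND2_3, or siRNAs to both genes (labelled siM2+siH2_3, here the double knockdown). The labels give 1 siRNA per target and do not state that replicates were separate cultures, so p-values measure only the spread between these samples. The question set by the design is which genes depend on MYCN, on HAND2 and on both.

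Estimated depth was 31.6 to 64.2 M reads per sample. The targeted transcripts were lowered in the groups so labelled, MYCN from 1009 CPM in siCtrl to 682 after siMYCN and 482 after the double knockdown, and HAND2 from 239 CPM to 62.3 after siHAND2 and 73.5 after the double knockdown. HAND2 rose to 326 CPM after siMYCN (log2 change 0.44, limma adjusted p 0.0062). Both targets overlap a gene on the other strand, HAND2-AS1 for HAND2 (99.3 to 151 CPM over all samples) and MYCNOS for MYCN (11.4 to 27.3 CPM). Whether reads of the targets were counted by strand is not given. Of 10 sympathoadrenal markers 9 were present at 1 CPM or more. Listed genes held 65.1% ± 0.74 (SD, n = 3) of reads in siCtrl, 62.4% ± 0.98 after siMYCN, 59.4% ± 2.39 after siHAND2 and 51.4% ± 7.04 after the double knockdown, where the 3 samples had 58.4%, 51.4% and 44.3%. CPM is scaled to all reads of a library, listed or not. The median log2 change of all 12680 tested genes was 0.006, −0.14 and −0.28 in the 3 knockdowns. Dividing each sample by its median ratio to the mean sample, taken as a geometric mean (rescaling), brought these medians to 0.014, 0.012 and 0.045. Changes are therefore given on the deposited scale and, where it alters the reading, after rescaling. On the deposited scale MYCN was lower after the double knockdown than after siMYCN (−0.51, limma adjusted p 7.0e-04). After rescaling that difference was −0.16 (limma adjusted p 0.0535). The MYCN change after siHAND2 was −0.25 (limma adjusted p 0.086), or −0.09 after rescaling (limma adjusted p 0.26).

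ID4 and HES6 were the members with the largest change in opposite directions, and ID1 and ID2 divided between the knockdowns. Their promoters are shown because these 4 genes were called against siCtrl after at least 1 single knockdown on the deposited scale. Each run is the 250 bases before the start in the RefSeq promoter table (build GRCh38.p14), placed on GRCh37 by an exact match, read 5′ to 3′ on the gene's strand, and capitals mark an E-box (CANNTG on either strand). That start equals the gene start in the deposited hg19 annotation for ID4, and lies 6 bases inside the gene for ID1, 73 for ID2 and 87 for HES6.
ID4 promoter, chr6:19837351-19837600, plus strand: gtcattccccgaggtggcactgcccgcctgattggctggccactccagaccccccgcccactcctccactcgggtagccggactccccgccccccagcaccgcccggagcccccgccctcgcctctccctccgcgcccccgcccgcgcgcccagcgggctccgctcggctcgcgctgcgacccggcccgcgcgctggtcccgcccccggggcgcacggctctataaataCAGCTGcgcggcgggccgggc
HES6 promoter, chr2:239148680-239148929, minus strand: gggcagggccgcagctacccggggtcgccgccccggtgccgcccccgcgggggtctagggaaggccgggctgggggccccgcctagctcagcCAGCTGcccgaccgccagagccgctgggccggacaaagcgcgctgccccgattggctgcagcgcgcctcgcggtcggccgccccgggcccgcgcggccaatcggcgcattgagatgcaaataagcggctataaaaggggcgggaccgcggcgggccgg
ID1 promoter, chr20:30192842-30193091, plus strand: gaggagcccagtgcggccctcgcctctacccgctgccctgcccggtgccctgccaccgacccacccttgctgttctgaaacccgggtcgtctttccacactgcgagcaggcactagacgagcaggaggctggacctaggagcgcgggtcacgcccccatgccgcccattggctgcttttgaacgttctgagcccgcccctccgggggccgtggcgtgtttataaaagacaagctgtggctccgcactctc
ID2 promoter, chr2:8821936-8822185, plus strand: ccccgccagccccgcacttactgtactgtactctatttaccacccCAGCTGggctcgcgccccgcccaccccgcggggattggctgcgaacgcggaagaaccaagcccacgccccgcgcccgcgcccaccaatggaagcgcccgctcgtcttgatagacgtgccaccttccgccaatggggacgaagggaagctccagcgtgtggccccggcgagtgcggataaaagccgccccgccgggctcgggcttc

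The E-box CAGCTG, a form bound by E protein dimers, stands once in the ID4 window with its first base at −21 from the RefSeq start, once in that of HES6 at −158 and once in that of ID2 at −205. Counted from the gene starts in that annotation, these positions are −21, −71 and −132. The ID1 window holds no CANNTG. Among 35116 RefSeq promoters of the same length, 61.8% hold CANNTG and 14% hold CAGCTG on either strand, so both are common. CACGTG, the preferred E-box of MYC family dimers, was found in none of the 4 windows and in 6.34% of all promoters. A TATA motif (TATAAA, sense strand) stands in the ID1, ID4 and HES6 windows and in 6.8% of all promoters. Such matches describe the letters and not binding.

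Within siCtrl the transcripts could be ordered after division by transcript length (CPM per kb of the MANE transcript). TCF12 was highest at 44.5 ± 0.57 CPM per kb (SD, n = 3), followed by ID1 at 38.0 ± 3.23, TCF4 at 30.6 ± 1.21 and TCF3 at 26.7 ± 0.49. HES6 at 23.3 ± 2.75 overlapped both its neighbours in this order, TCF3 and ID2 (22.7 ± 1.34). Within each siCtrl sample HES6 lay below TCF3, and it lay below ID2 in replicates 1 and 2 and above it in replicate 3. ID3 followed at 17.6 ± 1.90. HEY1 at 1.01 ± 0.019 and ID4 at 0.386 ± 0.046 CPM per kb were far lower, and HES1 was at the limit of detection. After the double knockdown the order of the means had become ID1, TCF12, ID2, TCF4, ID3, TCF3, HES6, ID4 and HEY1. The samples of each neighbouring pair from ID1 to TCF3 overlapped in that group. Within each of its samples, however, ID1 stood above TCF12, TCF12 above ID2, TCF4 above ID3 and ID3 above TCF3. ID2 stood above TCF4 in replicates 1 and 3 and below it in replicate 2 (31.0 and 33.7 CPM per kb), so the order of this pair is not settled. ID4 stood at 3.40 ± 0.74 CPM per kb there and HEY1 at 0.788 ± 0.19, without overlap. HES6 at 7.60 ± 1.29 lay below all samples of TCF3, ID1, ID2 and ID3.

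**Figure D1:**
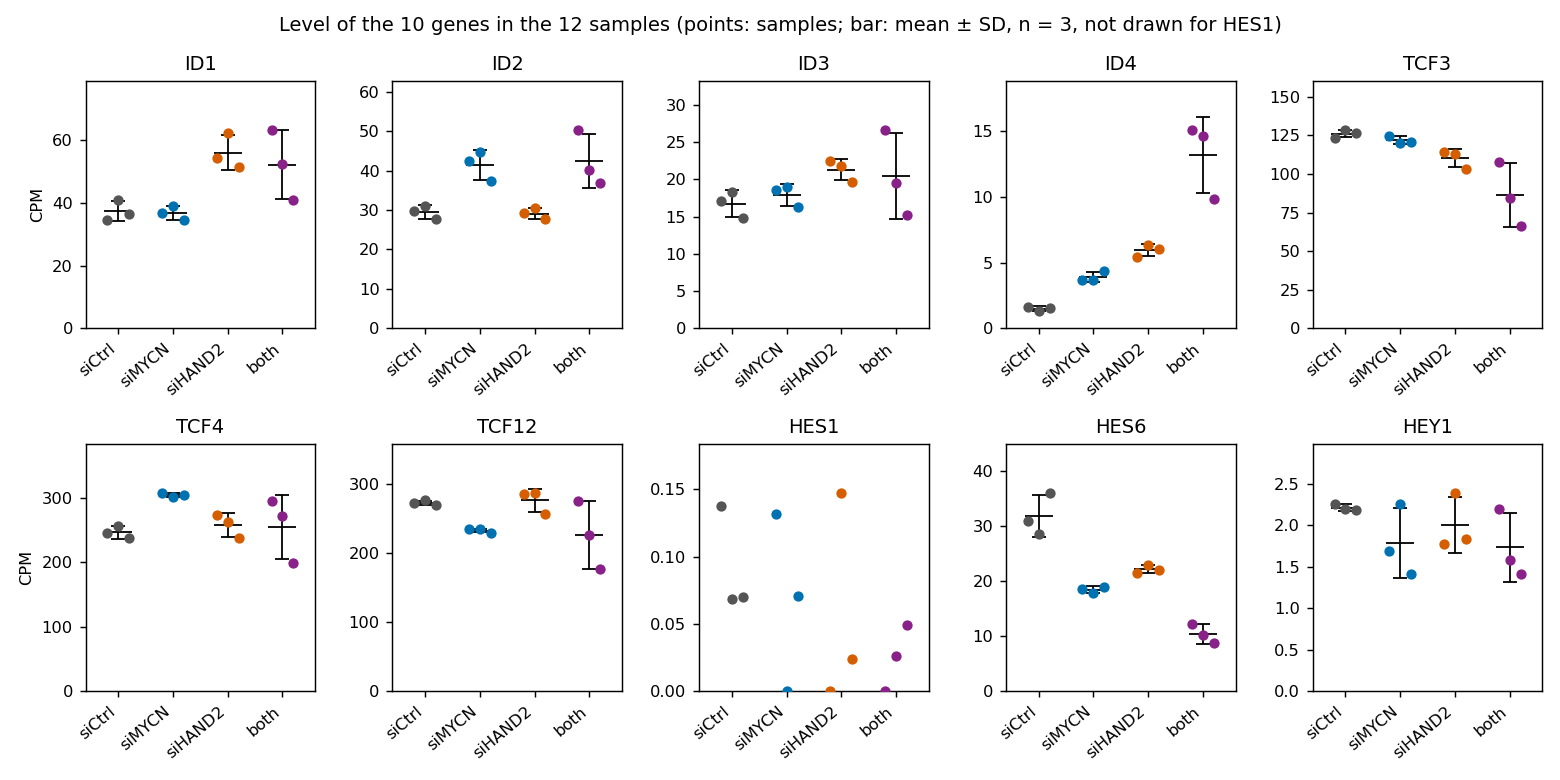
Level of each of the 10 genes in CPM (vertical axis, from 0, scaled per gene) in the 4 groups, where "both" is the double knockdown; points are samples in replicate order and bars the mean ± SD (n = 3, not drawn for HES1). ID4 ran from 1.30 to 1.65 CPM in siCtrl and from 9.85 to 15.0 after the double knockdown, and HES6 fell from between 28.7 and 36.0 to between 8.75 and 12.2 CPM.

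ID4, the inhibitor best known from neural progenitors, rose in every knockdown and stood highest when MYCN and HAND2 siRNAs were combined. In hg19 it occupies 19837601 to 19842432 of chromosome 6, on the plus strand. Its level was 1.65, 1.30 and 1.53 CPM in the siCtrl samples and 3.64, 3.71 and 4.35 CPM in the siMYCN samples. It was 5.44, 6.36 and 6.02 CPM after siHAND2 and 15.0, 14.6 and 9.85 CPM after the double knockdown. No 2 of the 4 groups overlapped, and even the lowest double knockdown sample lay above all siHAND2 samples.

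The mean of ID4 was 2.61 times that of siCtrl after siMYCN, 3.97 times after siHAND2 and 8.80 times after the double knockdown, or 2.63, 4.44 and 11.1 times after rescaling. On the log2(CPM + 1) scale, which understates changes of low genes, the increases were 0.97 (limma adjusted p 3.5e-06), 1.48 (2.1e-09) and 2.48 (3.5e-14), each with an SE of 0.13. ID4 was higher after the double knockdown than after siMYCN (1.51, limma adjusted p 5.3e-10) and than after siHAND2 (1.01, limma adjusted p 2.1e-06). Between the single knockdowns it was lower after siMYCN than after siHAND2 (−0.50, limma adjusted p 0.0043), although this call was lost when genes were not filtered on level (adjusted p 0.057). Without replicate 3 of the double knockdown, in which the listed genes held the fewest reads, the change after the double knockdown was 2.67. These values rest on 57 to 88 estimated reads per siCtrl sample and 404 to 965 per double knockdown sample. In bulk RNA more cells with a transcript and more of it per cell cannot be told apart, here and for the genes that follow.

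ID1 separated the knockdowns, since it was raised where HAND2 was targeted. It lies on chromosome 20 at 30193086 to 30194318 (plus strand) and had 34.7, 40.9 and 36.6 CPM in siCtrl and 36.7, 38.9 and 34.6 CPM after siMYCN. After siHAND2 it had 54.2, 62.2 and 51.6 CPM, and after the double knockdown 63.1, 52.4 and 41.1 CPM. All siHAND2 samples exceeded all siCtrl and siMYCN samples, while replicate 3 of the double knockdown lay close to the highest siCtrl sample.

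ID1 rose by 0.57 on the log2 scale after siHAND2 and by 0.45 after the double knockdown, with an SE of 0.13 and limma adjusted p of 0.001 and 0.0036. After siMYCN the change was −0.02 (limma adjusted p 0.91). The direct comparison of the single knockdowns gave a level lower by 0.59 after siMYCN (−0.59, limma adjusted p 9.3e-04). The double knockdown exceeded siMYCN by 0.48 (limma adjusted p 0.0032) and differed from siHAND2 by −0.12 (limma adjusted p 0.50). After rescaling the increases were 0.73 after siHAND2 and 0.81 after the double knockdown.

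ID2, which lies on the same chromosome arm as MYCN, showed the opposite split. It occupies chromosome 2 at 8822113 to 8824584 (plus strand). The siCtrl samples had 29.7, 31.1 and 27.6 CPM and the siHAND2 samples nearly the same, 29.2, 30.4 and 27.7 CPM. The siMYCN samples had 42.3, 44.9 and 37.4 CPM and the double knockdown samples 50.2, 40.3 and 36.9 CPM. Each sample that received the MYCN siRNA lay above each sample that did not.

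ID2 rose by 0.48 after siMYCN and by 0.50 after the double knockdown, with an SE of 0.12 and limma adjusted p of 0.0029 and 6.3e-04, and its change after siHAND2 was −0.02 (limma adjusted p 0.92). It was higher after siMYCN than after siHAND2 (0.50, limma adjusted p 0.002) and higher after the double knockdown than after siHAND2 (0.52, limma adjusted p 0.0012). After rescaling the double knockdown also exceeded siMYCN (0.37, limma adjusted p 3.5e-04), against 0.02 and no call on the deposited scale (limma adjusted p 0.88).

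ID3, an inhibitor often expressed together with ID1, moved less. It lies on chromosome 1 at 23884421 to 23886286 (minus strand). It had 17.1, 18.3 and 14.8 CPM in siCtrl, 18.6, 18.9 and 16.3 CPM after siMYCN, 22.5, 21.7 and 19.7 CPM after siHAND2, and 26.5, 19.5 and 15.2 CPM after the double knockdown. The siHAND2 samples lay above those of siCtrl, whereas the double knockdown samples spread across the whole range. Its changes of 0.10, 0.33 and 0.25 were not called (limma adjusted p 0.63, 0.057 and 0.13). With 1 sample left out the change after the double knockdown ran from 0.05 to 0.43. It was called without replicate 3 of the double knockdown (limma adjusted p 0.0028). With only the compared groups the change after siHAND2 was called (limma adjusted p 0.0083). After rescaling the changes after siHAND2 and the double knockdown were called, at 0.49 (limma adjusted p 5.2e-04) and 0.59 (limma adjusted p 4.8e-05).

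Among the E proteins, TCF3 fell after the double knockdown. The gene, whose products are the E2A proteins, lies on chromosome 19 at 1609289 to 1652329 (minus strand). The siCtrl samples had 123.6, 128 and 127 CPM, the siMYCN samples 125, 119.9 and 121 CPM, the siHAND2 samples 114, 113 and 103 CPM, and the double knockdown samples 108, 84.5 and 66.6 CPM. On this scale the siCtrl and siMYCN samples overlapped, and all siHAND2 and double knockdown samples lay below them. After rescaling the siHAND2 samples (109.6 to 113.3) overlapped those of siCtrl (111.9 to 116.7) and siMYCN (110.0 to 113.1).

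The fall of TCF3 after the double knockdown was −0.57 (SE 0.13, limma adjusted p 4.3e-04) on the deposited scale and −0.21 (limma adjusted p 0.0049) after rescaling, so its size depends on the scale. Without replicate 3 of the double knockdown it was −0.40. TCF3 was also lower after the double knockdown than after siMYCN (−0.52, limma adjusted p 0.0015) and than after siHAND2 (−0.38, limma adjusted p 0.024). The last of these calls was lost without replicate 2 or 3 of the double knockdown, without replicate 1 or 2 of siHAND2, without a filter, with only the compared groups, and with samples scaled to their listed genes (adjusted p 0.057). Its changes after siMYCN (−0.05) and siHAND2 (−0.20) were not called. With only the compared groups the fall after siHAND2 was called (limma adjusted p 0.016), but after rescaling it was −0.04 (limma adjusted p 0.62).

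TCF4 here is the E protein gene on chromosome 18 (52889562 to 53303225, minus strand), and not the Wnt effector TCF7L2 that shares the alias. It had 245, 256 and 237 CPM in siCtrl, 307, 300.6 and 305 CPM after siMYCN, 273, 262 and 238 CPM after siHAND2, and 295, 271 and 199 CPM after the double knockdown. All siMYCN samples lay above every other sample. The increase of 0.30 after siMYCN was not called in the fit of all 12 samples (SE 0.13, limma adjusted p 0.067). It was called with the replicate number as a block, treated here as pairing (limma adjusted p 0.029), and after rescaling (0.31, limma adjusted p 5.5e-04). On the deposited scale it was also called with only the compared groups (limma adjusted p 2.5e-04). The same held without replicate 1 or 3 of the double knockdown (limma adjusted p 0.022 and 0.0029). The changes of 0.06 after siHAND2 and 0.03 after the double knockdown became 0.22 (limma adjusted p 0.0059) and 0.39 (limma adjusted p 3.4e-05) after rescaling.

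TCF12, the gene of the E protein HEB, lies on chromosome 15 at 57210288 to 57583460 (plus strand). It had 272, 276 and 269 CPM in siCtrl, 234, 234 and 229 CPM after siMYCN, 285, 287 and 257 CPM after siHAND2, and 275, 226 and 177 CPM after the double knockdown. The siMYCN samples agreed closely and lay below all siCtrl samples. That difference of −0.23 was not called on the deposited scale in the fit of all 12 samples (limma adjusted p 0.18). It was called on that scale with only the compared groups (limma adjusted p 0.0012). Without replicate 1 or 3 of the double knockdown it was called too (limma adjusted p 0.048 and 0.028), as it was after rescaling (−0.22, limma adjusted p 0.0049). The change of −0.29 after the double knockdown passed narrowly (limma adjusted p 0.047), turned to 0.07 after rescaling and was lost in 11 of 12 fits that left out 1 sample, so no direction is given for it. It was also lost without a filter on level (adjusted p 0.14) and with only the compared groups (adjusted p 0.15). After siHAND2 TCF12 changed by 0.02, or by 0.18 after rescaling (limma adjusted p 0.016). TCF4 and TCF12 each overlap short or weakly expressed genes on the other strand, and whether reads were counted by strand is not given in the sources used here.

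HES6 fell in every knockdown and most in the double one. The gene lies on chromosome 2 at 239146908 to 239148766 (minus strand). It had 31.0, 28.7 and 36.0 CPM in siCtrl, 18.5, 17.9 and 19.0 CPM after siMYCN, 21.5, 22.9 and 22.1 CPM after siHAND2, and 12.2, 10.2 and 8.75 CPM after the double knockdown. The 4 groups did not overlap, and siMYCN stood below siHAND2.

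HES6 stood at 57.9% of its siCtrl mean after siMYCN, 69.5% after siHAND2 and 32.6% after the double knockdown, and at 58.3%, 77.6% and 41.4% after rescaling. The log2 changes were −0.75 (limma adjusted p 2.3e-05), −0.50 (0.0013) and −1.53 (2.2e-11), each with an SE of 0.12. It was lower after the double knockdown than after siMYCN (−0.78, limma adjusted p 4.5e-06) and than after siHAND2 (−1.03, limma adjusted p 3.6e-07). The single knockdowns differed by −0.25 (limma adjusted p 0.10), and by −0.39 after rescaling (limma adjusted p 0.001). On the deposited scale this difference was called with only the compared groups (limma adjusted p 0.0056). Without replicate 3 of the double knockdown the change after the double knockdown was −1.43.

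The Notch-responsive repressors were scarce. HES1 (chromosome 3, 193853931 to 193856402, plus strand) had between 0 and 5 estimated reads in each sample, 12 in all over the siCtrl samples, 8 over siMYCN, 6 over siHAND2 and 3 over the double knockdown. A count of 0 allows 3 reads, which is 0.0468 to 0.0949 CPM at these depths and covers counting error only. Differences in HES1 between the groups were not tested. HEY1 (chromosome 8, 80676245 to 80680099, minus strand) had 2.26, 2.19 and 2.18 CPM in siCtrl and between 1.41 and 2.38 CPM in the other 9 samples. Its changes of −0.22, −0.10 and −0.24 were not called (limma adjusted p 0.23, 0.56 and 0.11), and after rescaling the change was 0.003 after siHAND2 and −0.01 after the double knockdown.

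**Figure D2:**
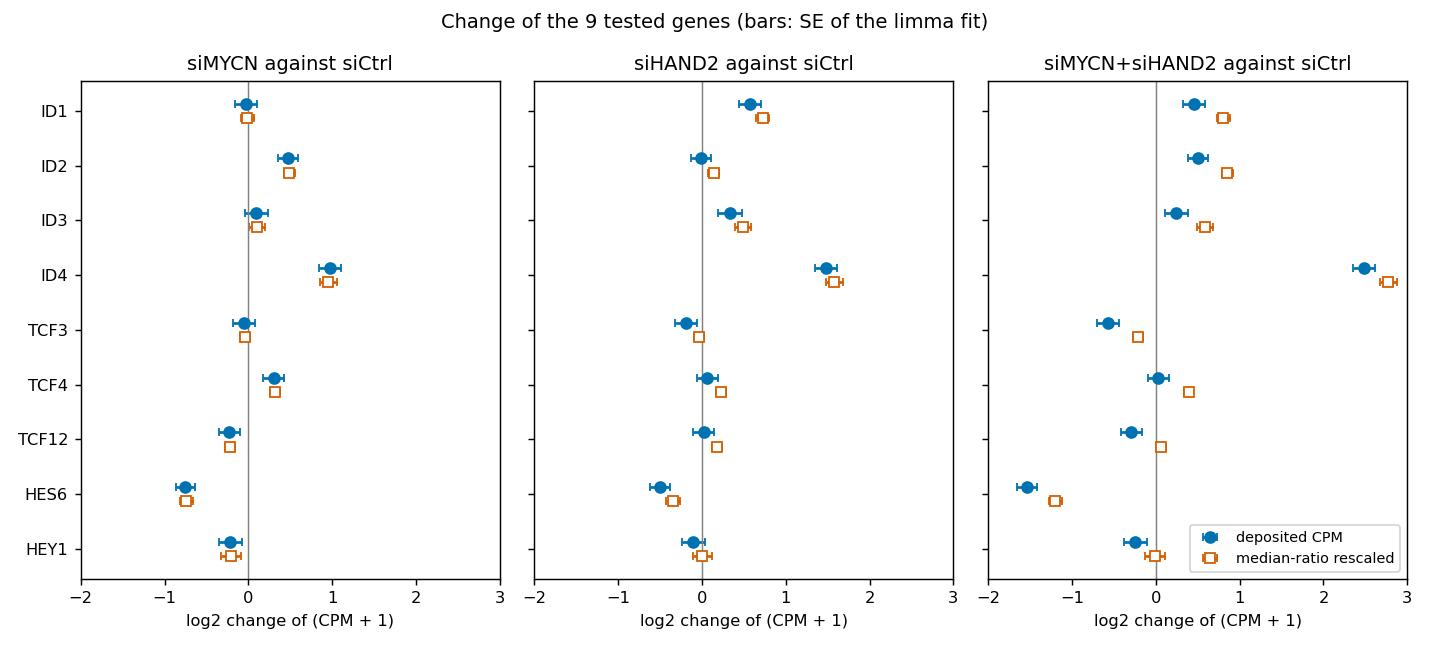
Change of the 9 tested genes against siCtrl in log2(CPM + 1) (horizontal axis), with 1 panel per knockdown; filled circles are deposited CPM, open squares rescaled values, and bars the SE of the limma fit. ID4 lay furthest right (2.48 in the double knockdown) and HES6 furthest left (−1.53) in the right panel, and in that panel TCF12 moved from −0.29 to 0.07 with the scale.

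Counted over the 9 tested members, 3 were called after siMYCN against siCtrl (ID2 and ID4 higher, HES6 lower), where 33.7% of all tested genes were called. After siHAND2 3 were called (ID1 and ID4 higher, HES6 lower) beside 42.7% of all genes. After the double knockdown 6 were called (ID1, ID2 and ID4 higher, TCF3 and HES6 lower, and TCF12, whose call rested on the settings named above) beside 67.4% of all genes. Each of these shares, 33.3%, 33.3% and 66.7%, was close to or below the background. Groups did not overlap for 5 of the 9 members in each of the 3 comparisons, beside 61.0%, 62.8% and 65.0% of all genes. On the deposited scale the members were by neither count called more often than other genes. After rescaling 5, 6 and 7 of the 9 members were called, with 47.9%, 50.8% and 70.7% of all genes. The median change of the 9 members was −0.02, 0.02 and 0.03, against 0.006, −0.14 and −0.28 over all genes, and after rescaling −0.01, 0.18 and 0.39, against 0.014, 0.012 and 0.045.

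The balance of directions over all genes moved with the scale, which bears on every list described further on. On the deposited scale 17.4% of all tested genes were called higher and 16.3% lower after siMYCN, 12.3% and 30.4% after siHAND2, and 17.4% and 50.1% after the double knockdown. After rescaling these shares were 25.4% and 22.5%, 25.9% and 24.9%, and 37.7% and 33.0%.

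The double knockdown was next compared with each single one. Against siMYCN 4 members were called (ID1 and ID4 higher, TCF3 and HES6 lower), with 58.9% of all genes called. Against siHAND2 4 were called (ID2 and ID4 higher, TCF3 and HES6 lower), with 40.3% of all genes called. That number was 3 without replicate 2 or 3 of the double knockdown and 6 without its replicate 1. Over all genes 4354 were then called without replicate 2, 5022 without replicate 3 and 6962 without replicate 1. Between siMYCN and siHAND2 3 were called (ID2 higher, ID1 and ID4 lower after siMYCN), with 35.0% of all genes called, and this number rose to 6 after rescaling (44.5% of all genes). These contrasts share samples with those above, so their counts are not separate evidence.

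Whether the effects of both siRNAs added up was asked with the interaction term (double minus siMYCN minus siHAND2 plus siCtrl, on the log2 scale). No member was called by limma, with 4.01% of all genes called, and 0 members had an unadjusted p under 0.05. For ID4 the term was 0.04 (95% interval −0.35 to 0.42, limma adjusted p 0.92) and for HES6 −0.28 (95% interval −0.63 to 0.06, limma adjusted p 0.31). The intervals were −0.71 to 0.05 for TCF3 and −0.71 to 0.03 for TCF4. These values are on the deposited scale, where the median term over all genes was −0.18, against −0.009 after rescaling. After rescaling the terms were 0.24 for ID4, −0.11 for HES6, −0.14 for TCF3 and −0.15 for TCF4. None of these 4 was called (limma adjusted p 0.32, 0.56, 0.33 and 0.30). Without replicate 1 of the double knockdown 3 members were called, TCF3, TCF4 and HES6, all negative, but 35.0% of all genes were then called too. Departures from additivity within these intervals were not detectable with 3 samples per group.

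Ratios between members within a sample do not depend on how libraries are scaled. The summed ID transcripts (CPM per kb) were divided by the summed E protein transcripts, a measure of RNA and not of protein. The ratio was 0.773 ± 0.0396 (SD, n = 3) in siCtrl, 0.878 ± 0.0629 after siMYCN, 1.03 ± 0.0479 after siHAND2 and 1.28 ± 0.0421 after the double knockdown. The siCtrl samples (0.742 to 0.817) and siMYCN samples (0.814 to 0.940) overlapped slightly. No label states that replicate numbers pair the samples. Set side by side by that number, the ratio was higher after siMYCN in 3 of 3 pairs (0.758 and 0.880, 0.817 and 0.940, 0.742 and 0.814). This difference was not tested. The siHAND2 samples (0.982 to 1.08) and double knockdown samples (1.23 to 1.31) each lay apart and higher.

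The makeup of the ID pool differed between the groups. ID1 gave 48.3% of the summed ID transcripts in siCtrl, 41.9% after siMYCN, 55.1% after siHAND2 and 48.0% after the double knockdown. ID2 gave 28.9%, 35.8%, 21.7% and 29.7%, so its share and that of ID1 moved in opposite directions in the single knockdowns and were near the siCtrl values in the double one. ID4 gave 0.495%, 1.14%, 1.49% and 3.07%, the smallest part of the pool in every group. Within the E protein pool TCF4 gave 30.1%, 37.2%, 31.9% and 36.6%, and TCF12 gave 43.8%, 37.4%, 44.9% and 42.5%. TCF3 gave 26.2%, 25.3%, 23.2% and 20.9%. HES6 transcripts outnumbered those of ID4 per kb by 60.7 ± 6.89 in siCtrl, 13.5 ± 1.03 after siMYCN, 10.6 ± 0.51 after siHAND2 and 2.27 ± 0.27 after the double knockdown, without overlap between any groups.

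**Figure D3:**
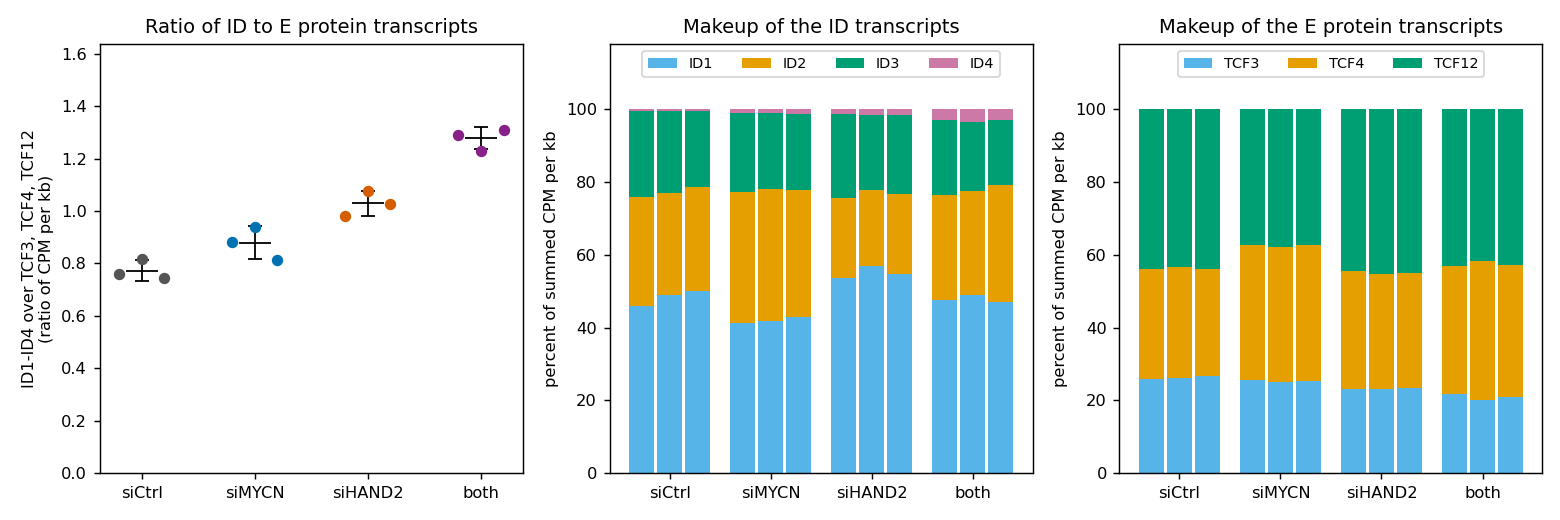
Left, ratio of summed ID to summed E protein transcripts in CPM per kb for each sample, with mean ± SD (n = 3). Middle and right, percent of the ID pool and of the E protein pool held by each gene, with 1 stacked bar per sample. The ratio was 0.773 in siCtrl and 1.28 after the double knockdown ("both"), and TCF4 held more of the E protein pool after siMYCN (37.2%) than in siCtrl (30.1%).

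Genes whose pattern over the 12 samples lay closest to those of ID4 and HES6 were sought among 10184 genes with a mean of at least 5 CPM, by the mean absolute difference of log2 deviations from siCtrl. For ID4 they were CELF4, a neuronal RNA-binding protein gene (difference 0.092), and ALCAM, a cell adhesion gene (0.13), against a median of 1.38 over all candidates. CELF4 rose by 1.01, 1.56 and 2.38 in the 3 knockdowns, beside 0.97, 1.48 and 2.48 for ID4. For HES6 they were EXOSC5, an RNA exosome subunit gene (0.052), and ODC1, which encodes ornithine decarboxylase of polyamine synthesis (0.060), against a median of 0.61. ODC1 fell by 0.70, 0.49 and 1.53, and it stood at 375 CPM in siCtrl and 130 CPM after the double knockdown. These genes were picked for their likeness over the same 12 samples. Their changes follow from that choice and are not separate evidence, so no p-values are given for them.

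Of the tissue-restricted basic HLH factors, with which E proteins pair, 14 of 31 were tested. After siMYCN 5 were called higher and 0 lower, after siHAND2 4 higher and 6 lower, and after the double knockdown 2 higher and 7 lower, beside 33.7%, 42.7% and 67.4% of all genes called in either direction. After rescaling these counts were 6 and 1, 6 and 5, and 5 and 6. The list holds HAND2, a targeted gene. Its median changes were 0.16, −0.13 and −0.30, and over all genes 0.006, −0.14 and −0.28. After rescaling they were 0.17, −0.02 and −0.10, and over all genes 0.014, 0.012 and 0.045.

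NHLH1 and NHLH2, neuronal HLH factors, rose in all 3 knockdowns. NHLH1 had 7.75 ± 0.607 CPM in siCtrl, 13.4 ± 1.21 after siMYCN, 52.1 ± 9.81 after siHAND2 and 72.3 ± 12.1 after the double knockdown (log2 changes 0.72, 2.59 and 3.06). NHLH2 changed by 0.75, 0.87 and 1.26. HAND1, the close relative of HAND2, rose by 0.55 after siMYCN and fell by 2.28 and 2.26 in the other 2 knockdowns. NEUROG2, a proneural factor, behaved likewise, with 44.4 ± 5.73 CPM in siCtrl, 75.9 ± 3.03 after siMYCN, 32.8 ± 1.53 after siHAND2 and 28.2 ± 7.00 after the double knockdown. Every change named in this paragraph had a limma adjusted p under 0.05 on the deposited and the rescaled values.

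**Figure D4:**
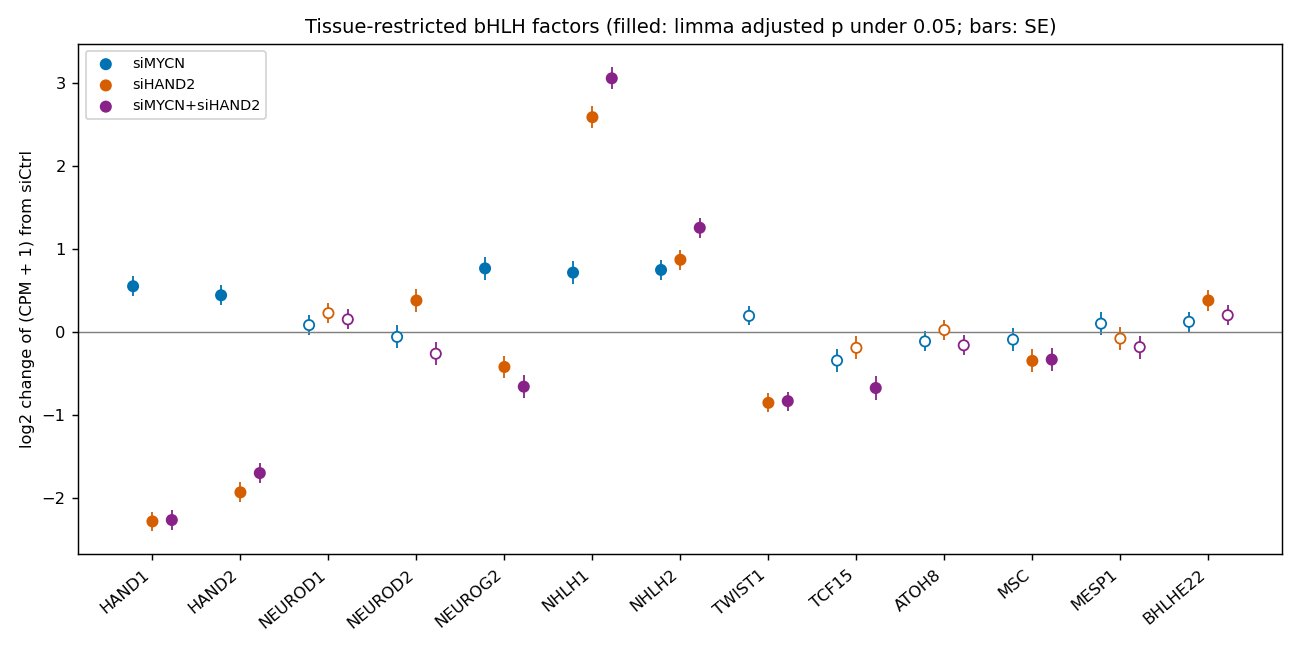
Change of 13 tested tissue-restricted basic HLH genes against siCtrl in log2(CPM + 1) (vertical axis) for the 3 knockdowns; filled points have a limma adjusted p under 0.05 on the deposited scale, and bars are the SE. NHLH1 and NHLH2 lay above 0 in all 3 (NHLH1 at 3.06 after the double knockdown), and HAND1 and HAND2 lay above 0 after siMYCN and below it in the other 2.

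The Notch pathway, which controls HES and HEY genes, had 24 of 28 genes tested. After siMYCN 5 were called higher and 4 lower, after siHAND2 7 and 4, and after the double knockdown 5 and 6 (all genes 33.7%, 42.7% and 67.4%). After rescaling they were 6 and 4, 12 and 2, and 14 and 3, so the balance of directions depends on the scale. The median change was 0.04, 0.06 and −0.08, and 0.05, 0.21 and 0.26 after rescaling, so that the value of the double knockdown turned sign. The receptors NOTCH1 and NOTCH3 fell in every knockdown, NOTCH1 by 0.48, 0.52 and 1.07 and NOTCH3 by 0.60, 0.64 and 1.22, on both scales. NRARP, a feedback inhibitor of Notch, fell by 0.35, 0.36 and 0.87, although the call after siHAND2 was lost after rescaling (−0.24, limma adjusted p 0.074). The ligand JAG1 rose from 2.89 CPM to 9.96, 7.94 and 13.1 CPM (1.50, 1.20 and 1.82). DLL3, a ligand that inhibits Notch within the cell, rose from 26.2 CPM to 66.8 after siHAND2 and 57.9 after the double knockdown (1.33 and 1.10), and its change after siMYCN was 0.19 (limma adjusted p 0.32).

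Among other HES and HEY family genes and their TLE co-repressors, 7 of 13 listed genes were tested. After siMYCN 2 were higher and 0 lower, after siHAND2 2 and 3, and after the double knockdown 2 and 2, with 33.7%, 42.7% and 67.4% of all genes called. After rescaling the counts were 4 and 0, 2 and 3, and 4 and 2. The median went from 0.31, 0.10 and 0.02 to 0.32, 0.18 and 0.27 with rescaling. TLE4 rose in all 3 knockdowns (0.63, 0.34 and 0.89), and TLE1 fell after siHAND2 and the double knockdown (−1.29 and −1.24).

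BMP signalling acts on ID genes through SMAD factors, and 15 of 27 genes of that list were tested. After siMYCN 4 were higher and 0 lower, after siHAND2 4 and 3, and after the double knockdown 4 and 5 (all genes 33.7%, 42.7% and 67.4%). After rescaling they were 9 and 0, 7 and 3, and 9 and 2. The medians of 0.24, −0.03 and −0.10 became 0.25, 0.11 and 0.22, and both negative values thus turned sign. SMAD1, which carries the BMP signal to the nucleus, rose by 0.38, 0.71 and 1.21 (limma adjusted p 0.043, 3.4e-04 and 6.3e-08), from 8.80 CPM to 22.2 CPM after the double knockdown. The receptor BMPR2 rose by 0.62, 0.55 and 0.72. SMAD5, a close relative of SMAD1, fell after siHAND2 and the double knockdown (−0.35 and −0.77), as did the receptor BMPR1B (−0.52 and −1.39).

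LIM-only and LIM-binding proteins bridge basic HLH dimers to other factors, and 7 of 9 such genes were tested. After siMYCN 2 were higher and 1 lower, after siHAND2 1 and 3, and after the double knockdown 2 and 3, where 33.7%, 42.7% and 67.4% of all genes were called. After rescaling the counts were 3 and 2, 3 and 2, and 4 and 2. Medians were −0.18, 0.08 and −0.14 on the deposited scale and −0.17, 0.23 and 0.21 after rescaling, the last of them with its sign turned. LDB1 rose in all 3 (0.31, 0.42 and 0.60) and LDB2 fell in all 3 (−0.58, −0.46 and −1.23), the fall after siHAND2 being lost after rescaling (−0.35, limma adjusted p 0.062).

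Markers of other cell types were read beside these groups. Of 7 fibroblast genes 3 were present at 1 CPM or more (PDGFRA, FBLN1 and COL1A1), and the list summed to 198 to 216 CPM in siCtrl, 238 to 259 after siMYCN, 97.1 to 135 after siHAND2 and 57.2 to 93.6 after the double knockdown. Among the rest of that list, COL1A2 and DCN were under 0.1 CPM. The 5 Schwann cell genes, of which 1 reached 1 CPM, summed to 1.79 to 1.87, 2.88 to 3.61, 2.25 to 2.55 and 2.80 to 3.54 CPM. Sums of the immune and epithelial lists stayed under 1 CPM in every sample. The 10 sympathoadrenal genes summed to 1508 to 1610, 1383 to 1432, 1454 to 1606 and 936 to 1338 CPM. This list holds MYCN, a targeted gene, which alone had 964 to 1049, 666 to 708, 802 to 899 and 433 to 555 CPM. The part of these shifts in the changes of ID and HES6 genes was not tested.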

How the data were processed

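RNA sequencing of 12 IMR32 samples (4 groups of 3, grouped and numbered by title) was analysed from a table of CPM that the authors deposited. The submitters' processing notes name STAR 2.5.1 and Partek, and gene positions are hg19. The counting tool, strand use, annotation and filters are not given in the sources used here. Every deposited CPM value holds an added 0.0001. Depth was estimated from the smallest step of low values. With a tolerance of 0.05 reads, 88.9 to 90.5% of values below 20 reads came out whole, too few to run a test on counts.

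A linear model of the 4 groups was fitted to log2(CPM + 1) of the 12680 genes averaging 1 CPM or more (limma 3.58.1 with a mean-variance trend, R 4.3.3, 2-sided, Benjamini-Hochberg over all tested genes). Genes with an adjusted p under 0.05 are termed called. The code was tested on simulated data. Alternatives were median-ratio rescaling, scaling to the sum of listed genes, no filter or one at 5 CPM, a pseudocount of 0.1, no trend, only the compared groups, the replicate number as a block, and each sample left out.

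Same-numbered samples deviated together in every pair only for siCtrl with siMYCN (correlations 0.44, 0.15 and 0.31) and siMYCN with siHAND2 (0.33, 0.14 and 0.32). For these comparisons the block is treated as pairing, which rests on the data. Column names of the deposited table number the samples set by set in replicate order across the groups, but state no batch or pairing. The block itself was fitted over all 12 samples. The members, the gene lists and the rule for named genes (all members, both targets, list genes, and the 2 genes closest in pattern to each member that changed by at least 1) were chosen with earlier results of these data known. Some list genes are counted but not reported here by name.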

Additional observations from a re-analysis of the deposited data

How the results depend on the processing

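The rises of ID4 and falls of HES6 in the 3 knockdowns against siCtrl kept their direction and call under every alternative run and with each sample left out, as did the rises of ID1 in siHAND2 and the double knockdown and of ID2 in siMYCN and the double knockdown. The number of called members changed with the scaling and with the samples fitted. For siMYCN, siHAND2 and the double knockdown against siCtrl it was 3, 3 and 6, and 5, 6 and 7 after median-ratio rescaling. For the double knockdown against siMYCN it went from 4 to 7, and for siMYCN against siHAND2 from 3 to 6. Scaling to the sum of listed genes gave 5 in siMYCN, 5 in siHAND2, 7 for the double knockdown against siMYCN and 7 for siMYCN against siHAND2. With only the compared groups, 5 were called in siMYCN, 5 in siHAND2 and 8 for siMYCN against siHAND2, the largest move of any of these numbers. Of the 12680 tested genes 6963 were then called in siMYCN and 6730 for siMYCN against siHAND2. Scaling to listed genes, and rescaling for the double knockdown against siMYCN, are given without a share of all genes. Those counts are therefore not read as a result about the members.

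With the replicate block 4, 4, 6, 5, 5, 3 and 0 members were called in the 7 contrasts, against 3, 3, 6, 4, 4, 3 and 0 without it, and the block together with rescaling gave 5 in siMYCN, 6 in siHAND2, 7 for the double knockdown against siMYCN and 6 for siMYCN against siHAND2. Apart from TCF4 in siMYCN the block changed no call where the numbers are treated as pairing the samples. In the other pairs of groups 2 to 4 of 6 samples correlated best with their own number. In siHAND2 the block added ID3 (adjusted p 0.013). Except where named below, the number over all genes with the block is not given, so these member counts are not set against other genes.

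Some changes turned sign. Scaling to the sum of listed genes gave 0.038 for ID1 and 0.012 for TCF3 in siMYCN, 0.11 for ID2 in siHAND2, 0.057 for TCF12 in the double knockdown, 0.22 for TCF12 in the double knockdown against siMYCN, and 0.18 for TCF4 against siHAND2. Rescaling by the median ratio, with and without the block, gave 0.14 for ID2 and 0.0034 for HEY1 in siHAND2, 0.066 for TCF12 in the double knockdown, 0.28 for TCF12 against siMYCN and 0.17 for TCF4 against siHAND2. Of these, TCF12 against siMYCN (adjusted p 5.7e-04 by median ratio, 0.0068 by listed sum) and TCF4 against siHAND2 (0.030 and 0.029) were called higher on the new scale, where neither was called on the deposited one. The cause was not tested. The ID4 interaction was −0.22 with a pseudocount of 0.1.

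With 1 sample left out, called members ranged from 3 to 5 in siMYCN, 3 to 4 in siHAND2, 5 to 7 in the double knockdown, 4 to 5 against siMYCN, 3 to 6 against siHAND2, 3 to 6 for siMYCN against siHAND2, and 0 to 3 for the interaction. In siMYCN 5 members were called without replicate 1 or 3 of the double knockdown (5491 and 5756 of all genes). Calls over all genes ranged from 3202 to 5756 in siMYCN, 4303 to 6941 in siHAND2 and 7833 to 9340 in the double knockdown. They ranged from 6414 to 8960 against siMYCN, 3905 to 6962 against siHAND2 and 3261 to 6082 for siMYCN against siHAND2. Changes that turned sign ranged from −0.074 to 0.042 for ID1 in siMYCN, −0.062 to 0.020 for ID2 and −0.0099 to 0.069 for TCF12 in siHAND2, and −0.083 to 0.20 for TCF4 in the double knockdown. Against siMYCN the ranges were −0.10 to 0.12 for ID2, −0.049 to 0.33 for ID3 and −0.22 to 0.10 for TCF12, against siHAND2 −0.15 to 0.13 for TCF4, and for the ID4 interaction −0.065 to 0.22.

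Over all genes, 4273 calls in siMYCN became 6963 with only the compared groups and 6480 with block and rescaling, and 4443 calls between siMYCN and siHAND2 became 6730 with only the compared groups. The 508 interaction calls became 779 after rescaling, 780 with scaling to listed genes, 1282 with the block, 1262 with both, 88 without a filter, and 263 to 4443 with 1 sample left out. The cause was not tested. Depth limits HES1, HEY1 and the siCtrl level of ID4.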
